A study of Homo sapiens with 6 samples.

Results

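The genes described here encode the matrix metalloproteases (MMP), the membrane-anchored ADAM proteins, the secreted ADAMTS proteases and the tissue inhibitors of metalloproteases (TIMP). Members were all probe sets whose platform gene symbol begins with MMP, ADAM or ADAMTS and a digit, or is TIMP1 to TIMP4. The rule found 63 of 21448 non-control probe sets: 22 MMP genes, 19 ADAM genes, 18 ADAMTS genes, 3 TIMP genes and MMP25-AS1, a non-coding RNA that is antisense to MMP25 and not a protease. Each had 1 probe set. TIMP2 was not analysed here.

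Single-colour arrays were used to measure expression in T24 cells, an established line from a human bladder cancer. In the ox-LDL group, 3 samples were exposed for 24 h to oxidized low-density lipoprotein, an oxidized cholesterol-carrying plasma particle, at 20 µg/mL. In the vehicle group, 3 samples received vehicle for the same time, and both groups had first been kept without serum for 12 h. All values are log2 expression values that the authors made with RMA, a method that equalises the arrays, and a difference is ox-LDL minus vehicle. Whether replicates came from separate cultures is not stated, so the p-values rest on a spread between samples that may be technical only.

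Metalloproteases hold a zinc ion in the active site and are made as inactive precursors. MMPs cut collagens, laminins, fibronectin and other matrix proteins, membrane-type MMPs do so at the cell surface, ADAMs release the outer parts of membrane proteins such as growth factors and cytokine receptors, and ADAMTS proteases cut proteoglycans and process procollagens. TIMPs bind the active site and block it. In bladder cancer these enzymes are studied for their part in invasion through the basement membrane.

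The third vehicle array stood apart from the others before any comparison: its correlation with the other 5 arrays over all probe sets was 0.979 to 0.988, against 0.992 to 0.997 among those 5. It was the vehicle array farthest from the other two for 33 of the 63 members (52.4%), against 58.8% of all probe sets. A free-text label of these samples speaks of G9a and negative control siRNA, against the titles, sources and treatment fields that were followed here. EHMT2, the G9a gene, averaged 8.22 ± 0.14 with ox-LDL and 7.85 ± 0.19 with vehicle (SD, n = 3 each) and did not pass the test (difference 0.37, 95% confidence interval 0.07 to 0.66, limma adjusted p = 0.125). Its ox-LDL arrays all lay above its vehicle arrays, as for 19.1% of all probe sets. The epithelial keratins KRT7, KRT8 and KRT18 averaged 12.25, 12.20 and 11.91 with ox-LDL and 11.97, 12.10 and 11.89 with vehicle. These keratins were the brightest of the measured urothelial markers. The mean level of that whole list was 7.43 to 7.55 on ox-LDL arrays and 7.40 to 7.58 on vehicle arrays. Of 13 measured urothelial markers, CDH1, UPK1B and UPK3A lay at or below the negative controls, whose 95th percentile was 5.09. Mean levels of the fibroblast, leukocyte and endothelial marker lists were 5.87 to 5.95, 5.65 to 5.71 and 5.34 to 5.42 on ox-LDL arrays, against 5.95 to 6.37, 5.72 to 5.98 and 5.42 to 5.84 on vehicle arrays. Of these lists, 1 of 7 fibroblast markers (LUM), 3 of 8 leukocyte markers (AIF1, LYZ and PTPRC) and 3 of 7 endothelial markers (EMCN, KDR and TEK) were at or below the negative controls. The other markers were above them, such as COL1A2 (8.39 with ox-LDL and 8.71 with vehicle), CD68 (7.94 with ox-LDL and 8.07 with vehicle) and VWF (6.97 with ox-LDL and 7.27 with vehicle), and the part of these levels in the results was not tested.

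Among the 63 members, MMP1, MMP3, MMP14 and TIMP4 fell with ox-LDL and ADAMTS1 and ADAM23 rose, while 57 did not pass. The test was limma's moderated test with Benjamini-Hochberg adjustment over all 21448 probe sets, and a probe set was called at an adjusted p under 0.05. The 6 calls are 9.52% of the members, against 6.77% of all probe sets, so the share of members called was close to the background. By direction, 2 members rose where 3.48% of all probe sets did, and 4 fell where 3.29% did. The median difference was -0.11 over the members and -0.03 over all probe sets. Without the third vehicle array the members' median was -0.04, with 2 members higher and 5 lower, and the share called among all probe sets was 12.4%. The 3 ox-LDL arrays lay wholly above or below the 3 vehicle arrays for 23 members, 11 above and 12 below, against 36.8% of all probe sets, 19.1% above and 17.7% below. Of the members, 44 were above the negative controls in at least 1 group and 19 were not, and the 6 called were all among the 44 (13.6%, against 8.31% of all probe sets above the negative controls). In a culture measured in bulk, fewer cells that make a transcript and less of it per cell cannot be told apart.

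**Figure D1:**
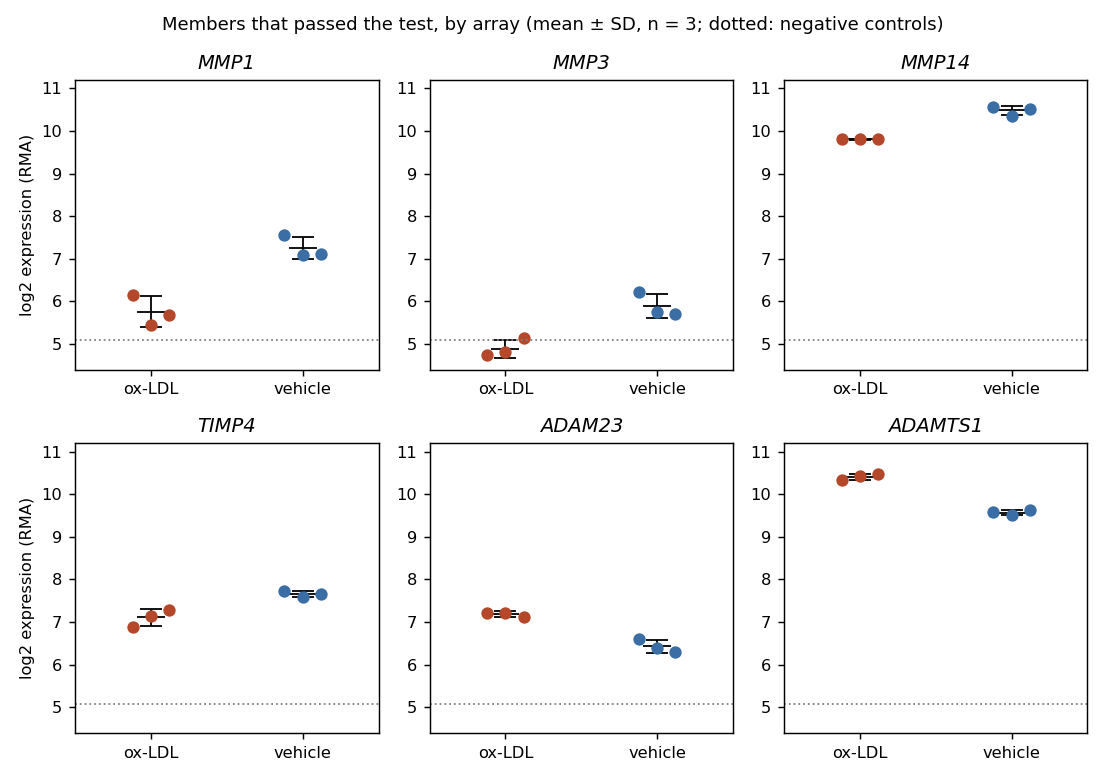
Log2 expression of the 6 called members, with ox-LDL left of vehicle in each panel. Points are arrays, bars the mean ± SD of 3 arrays, and the dotted line the 95th percentile of the negative controls at 5.09. In every panel the 3 ox-LDL points lie wholly below or wholly above the 3 vehicle points. Of the MMP3 points with ox-LDL, 1 lies just above the dotted line and the others lie below it.

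MMP1, the interstitial collagenase that opens fibrillar collagen, showed the largest difference of any member. It had log2 values of 6.16, 5.44 and 5.67 on the ox-LDL arrays, against 7.56, 7.09 and 7.12 on the vehicle arrays. Every ox-LDL array was below every vehicle array, and the first array of each group was its highest. MMP1 was 2.83-fold lower (difference -1.50, SE 0.21, 95% confidence interval -1.99 to -1.01, limma adjusted p = 0.0102). Its call was lost without ox-LDL replicate 3 (adjusted p = 0.063, difference -1.45).

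MMP3, stromelysin 1, which cuts many matrix proteins and activates other MMP precursors, fell too. It had 4.73, 4.82 and 5.13 on the ox-LDL arrays, against 6.22, 5.75 and 5.70 on the vehicle arrays. The groups did not overlap, but 1 of the 3 ox-LDL arrays exceeded the negative control level of 5.09. The difference was -1.00 (SE 0.17, 95% confidence interval -1.40 to -0.60, limma adjusted p = 0.0192). The ox-LDL mean of 4.89 lay below the negative control level, so the fold is a bound with regard to that level only. With values under that level set to it, MMP3 was estimated at least 1.73-fold lower. This bound leaves out the spread between arrays. Without ox-LDL replicate 1 or 2 MMP3 did not pass (adjusted p = 0.0934 and 0.0962). MMP10, stromelysin 2, a close paralog of MMP3 whose transcripts the probes may not fully separate, had 5.38, 5.22 and 5.68 with ox-LDL and 6.06, 5.52 and 5.97 with vehicle. Its groups overlapped, with the highest ox-LDL array above the lowest vehicle array, and the difference of -0.42 (95% confidence interval -0.84 to -0.01) did not pass (limma adjusted p = 0.186). MMP11, stromelysin 3, had a difference of -0.36 with overlapping groups (limma adjusted p = 0.282).

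MMP1, MMP3 and MMP10 belong to a run of 9 MMP genes on chromosome 11. The 9 genes are direct neighbours among the protein-coding genes of the RefSeq gene table. In that order they are MMP7, MMP20, MMP27, MMP8, MMP10, MMP1, MMP3, MMP12 and MMP13. The 3 genes in the middle of the run, MMP10, MMP1 and MMP3, were above the negative controls and the other 6 were not. MMP13, collagenase 3 at the end of the run, had 4.50, 4.33 and 4.67 with ox-LDL and 5.05, 4.78 and 5.22 with vehicle. Its groups did not overlap, but both means lay below 5.09, so no fold is given, and it did not pass (difference -0.52, limma adjusted p = 0.0755). MMP12, the macrophage elastase, which stands between MMP3 and MMP13, had a difference of 0.29 with overlapping groups, and MMP8, the neutrophil collagenase, one of 0.23, both below the negative control level. MMP7, the matrilysin at the other end, averaged 3.21 ± 0.07 with ox-LDL and 3.36 ± 0.19 with vehicle (SD, n = 3 each), not above the negative controls. Of the 9 neighbours 2 fell (22.2%, against 6.77% of all probe sets), and their median difference was -0.15. The run was taken up with its called genes known, so this share cannot test whether neighbours fell more often than other genes.

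**Figure D2:**
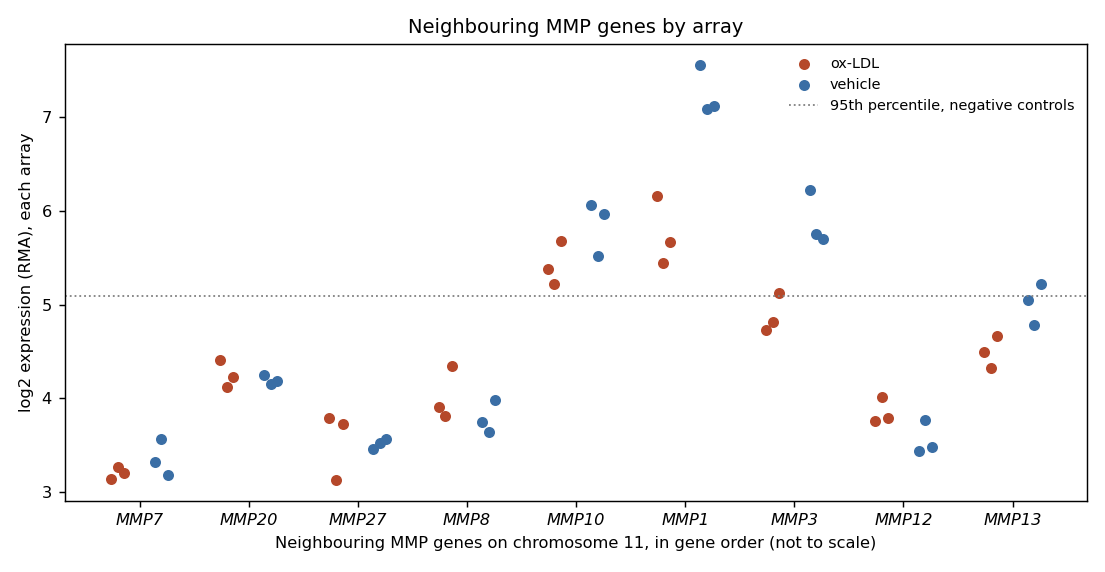
Log2 expression on each array of the 9 neighbouring MMP genes of chromosome 11, in gene order and not to scale, with ox-LDL points left of vehicle points for each gene. The dotted line is the negative control level of 5.09. MMP1 and MMP3 separate by group, MMP10 overlaps, and the other 6 genes lie around or below the line.

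RefSeq promoter entries were read for MMP7, MMP20, MMP27, MMP8 and MMP10 of this run. That of MMP10 is shown because MMP10 was the one of these 5 above the negative controls. The motifs searched are those for which MMP promoters are known, the AP-1 site and the TATA box. AP-1 is a dimer of FOS and JUN family proteins, and its usual site is TGA, then C or G, then TCA. The pattern searched, TGANTCA, allows any base at the centre and so also counts other matches. TATAAA is the core of the TATA box. The 250 bases before the start of MMP10 on the minus strand (GRCh38.p14, chr11:102780629-102780878) read as follows, with both motifs in capitals.
MMP10: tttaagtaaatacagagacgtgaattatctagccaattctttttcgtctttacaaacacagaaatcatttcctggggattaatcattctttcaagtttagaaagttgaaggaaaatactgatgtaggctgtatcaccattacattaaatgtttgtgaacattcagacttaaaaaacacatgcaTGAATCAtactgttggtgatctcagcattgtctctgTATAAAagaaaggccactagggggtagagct
TGAATCA, a match to TGANTCA with A at the centre and so not the usual site, stands 67 to 61 bases before the start. TATAAA stands 31 to 26 bases before it. TGANTCA, searched on both strands and without overlap with the other motif, occurred in 6.57% of the 35116 promoters of the same length in that table, and TATAAA in 10.7%. Of the 38 members with an entry, 7 held TATAAA (18.4%), among them MMP7, MMP8, MMP10 and MMP20 of the run, and 4 held TGANTCA (10.5%): MMP7, MMP10, MMP20 and ADAMTS12, none of which passed the test of expression, in which MMP20 had a difference of 0.06 and ADAMTS12 one of 0.17. Entries of MMP1, MMP3 and ADAMTS1 were not used here. A match describes these letters and does not show binding.

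MMP14, the membrane-type enzyme that activates the MMP2 precursor and cuts collagen at the cell surface, fell with little spread. It had 9.81, 9.80 and 9.81 on the ox-LDL arrays, against 10.57, 10.36 and 10.52 on the vehicle arrays. The ox-LDL arrays were nearly equal (SD 0.0026, n = 3) and all lay below the vehicle arrays (SD 0.11, n = 3). MMP14 was 1.6-fold lower (difference -0.68, SE 0.08, 95% confidence interval -0.87 to -0.49, limma adjusted p = 0.00569), and it passed with any 1 array left out. The other 5 membrane-type MMPs did not pass. MMP16, a membrane-anchored relative of MMP14, had 8.15, 8.13 and 8.04 with ox-LDL and 7.92, 7.64 and 7.78 with vehicle. All its ox-LDL arrays were above its vehicle arrays, opposite to MMP14, with a difference of 0.32 (95% confidence interval 0.10 to 0.54, limma adjusted p = 0.0877). MMP25, MMP17, MMP15 and MMP24 had differences of -0.26, -0.07, -0.06 and 0.00 and overlapping groups. MMP25-AS1, the antisense RNA, averaged 6.33 ± 0.04 with ox-LDL and 6.50 ± 0.11 with vehicle (SD, n = 3 each) and did not pass (difference -0.17, limma adjusted p = 0.232).

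The gelatinases, which cut type IV collagen of basement membranes, did not pass. MMP2, gelatinase A, had 5.13, 5.18 and 5.04 with ox-LDL and 5.05, 5.12 and 5.59 with vehicle, with the third vehicle array the highest. Both groups lay near the negative control level, and the difference of -0.13 had a 95% confidence interval of -0.48 to 0.22. For MMP9, gelatinase B, the values were 6.42, 6.37 and 6.54 with ox-LDL and 6.42, 6.48 and 6.29 with vehicle. These groups overlapped, and the difference of 0.05 had a 95% confidence interval of -0.16 to 0.25. Among the remaining MMPs, MMP19 had a difference of 0.40 without overlap (limma adjusted p = 0.14), MMP26 one of -0.34 (limma adjusted p = 0.132) below the negative control level, and MMP28, MMP21, MMP20 and MMP27 ranged from -0.29 to 0.06. Over the 22 MMP genes 3 fell and 19 did not pass (13.6% called, against 6.77% of all probe sets), with 14 differences below 0 and a median of -0.14, or -0.06 without the third vehicle array.

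**Figure D3:**
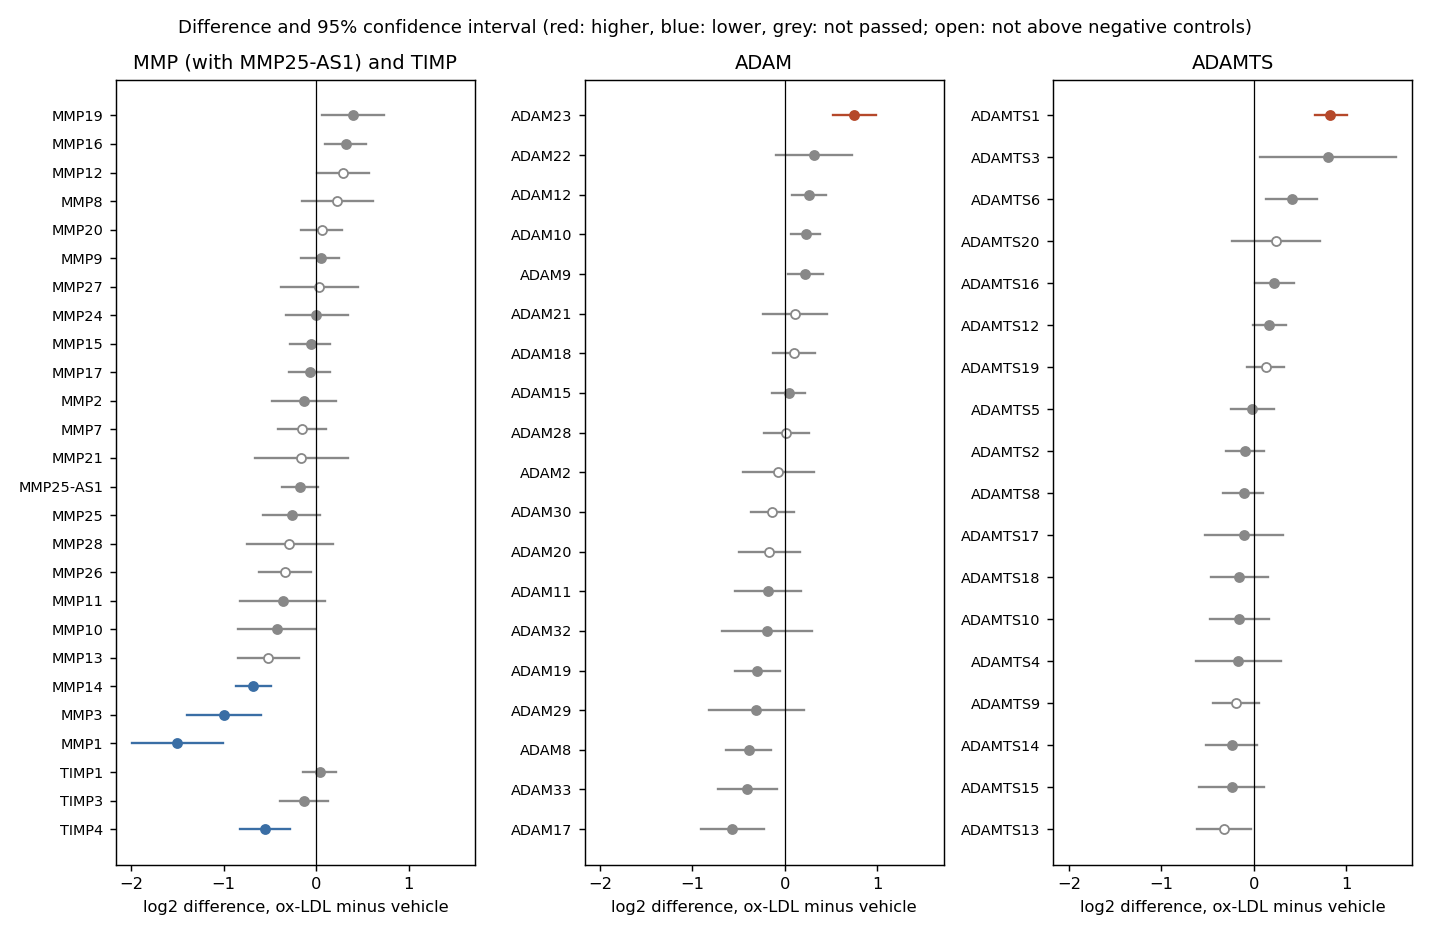
Difference in log2 expression, ox-LDL minus vehicle, with its 95% confidence interval for all 63 members, sorted by size within each subfamily. Red marks members called higher, blue called lower and grey not passed, and open circles are members not above the negative controls in either group. MMP1 has the lowest value at -1.50 and ADAMTS1 the highest at 0.83.

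In the ADAM family the one gene that passed was ADAM23, which lacks the zinc-binding site and serves in cell adhesion, as a ligand of integrins and of LGI proteins. It had 7.22, 7.22 and 7.11 on the ox-LDL arrays, against 6.61, 6.39 and 6.30 on the vehicle arrays. All ox-LDL arrays stood above all vehicle arrays. ADAM23 was 1.68-fold higher (difference 0.75, SE 0.10, 95% confidence interval 0.52 to 0.99, limma adjusted p = 0.00869), and the call was lost without ox-LDL replicate 1 or 2 (adjusted p = 0.0555 and 0.0578). ADAM22, its close relative and also without protease activity, had a difference of 0.31 with overlapping groups (limma adjusted p = 0.297). The other 5 ADAMs without the zinc-binding site, ADAM11, ADAM29, ADAM32, ADAM2 and ADAM18, ranged from -0.31 to 0.10.

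Of the 12 ADAMs that carry the zinc-binding site, none passed in limma, although 7 had an unadjusted p under 0.05 and groups that did not overlap, as 25% of all probe sets did. With an unmoderated t statistic 1 passed, against 5.07% of all probe sets, and with array weights 6 passed, against 18.5%. ADAM17, the sheddase of tumour necrosis factor and of several EGF receptor ligands, had 8.93, 8.90 and 8.95 with ox-LDL, against 9.71, 9.62 and 9.17 with vehicle. The third vehicle array was the lowest of its group and the closest to the ox-LDL arrays, which were tightly grouped. The difference was -0.57 (95% confidence interval -0.91 to -0.23, limma adjusted p = 0.0632). Without that array it was -0.74 and passed (adjusted p = 0.00311), as 12.4% of all probe sets did. ADAM17 passed under 7 of 17 alternatives. With all arrays kept, these included a second quantile normalization, cyclic loess, a filter on dim probe sets and array weights. ADAM10, the sheddase of Notch receptors and cadherins, had 10.45, 10.42 and 10.45 with ox-LDL and 10.22, 10.22 and 10.21 with vehicle. These groups were apart with spreads of 0.02 and 0.01 (SD, n = 3 each), and the difference of 0.23 (95% confidence interval 0.07 to 0.38) did not pass in limma (adjusted p = 0.0875) but did with an unmoderated t statistic. The difference between the responses of ADAM17 and ADAM10 was not tested.

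ADAM8, a protease best known from leukocytes and invasive tumours, had 7.93, 7.94 and 7.86 with ox-LDL and 8.13, 8.29 and 8.48 with vehicle. Its ox-LDL arrays were all lower (difference -0.39, limma adjusted p = 0.0706). ADAM9 and ADAM12, both able to release EGF receptor ligands, had differences of 0.22 and 0.26, with every ox-LDL array above every vehicle array (limma adjusted p = 0.145 and 0.0947). ADAM33 and ADAM19 had differences of -0.41 and -0.30, with every ox-LDL array below every vehicle array (limma adjusted p = 0.116 and 0.135). ADAM15 had nearly equal group means, 8.99 ± 0.04 with ox-LDL and 8.95 ± 0.08 with vehicle (SD, n = 3 each), and its interval was -0.14 to 0.22. ADAM20, ADAM21, ADAM28 and ADAM30 were not above the negative controls. Of the 19 ADAM genes 1 rose (5.26% called, against 6.77% of all probe sets), and they had a median difference of -0.07, with 9 differences above 0 and 10 below.

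ADAMTS1, a secreted protease that cuts the proteoglycans aggrecan and versican, was the member with the smallest p. It had 10.34, 10.42 and 10.47 on the ox-LDL arrays, against 9.58, 9.51 and 9.63 on the vehicle arrays. The 2 groups were far apart compared with their spreads of 0.07 and 0.06 (SD, n = 3 each). ADAMTS1 was 1.78-fold higher (difference 0.83, SE 0.07, 95% confidence interval 0.66 to 1.01, limma adjusted p = 0.00239) and passed with any 1 array left out. ADAMTS5, the aggrecanase that is its direct neighbour on chromosome 21, had 5.86, 5.64 and 5.91 with ox-LDL and 5.72, 5.91 and 5.83 with vehicle. Those groups overlapped, and the difference of -0.02 had an interval of -0.25 to 0.22. The other proteoglycan-cutting members, ADAMTS4, ADAMTS8, ADAMTS9, ADAMTS15 and ADAMTS20, ranged from -0.24 to 0.24 and did not pass.

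Of the procollagen N-propeptidases, which trim fibrillar procollagens, ADAMTS3 had 5.53, 5.96 and 5.77 with ox-LDL and 5.40, 5.26 and 4.20 with vehicle. The third vehicle array lay far below the rest of its group, and the difference of 0.80 (95% confidence interval 0.07 to 1.54, limma adjusted p = 0.164) was 0.42 without it. ADAMTS14 and ADAMTS2 had differences of -0.24 and -0.10. ADAMTS6, which acts on fibrillin microfibrils, had 9.14, 8.93 and 8.86 with ox-LDL and 8.65, 8.67 and 8.38 with vehicle. Its groups did not overlap, but the difference of 0.41 did not pass (limma adjusted p = 0.0856). ADAMTS16 and ADAMTS12 were also higher on every ox-LDL array than on any vehicle array, by 0.22 and 0.17 (limma adjusted p = 0.181 and 0.212). ADAMTS13, the protease of von Willebrand factor, was not above the negative controls. In all, 1 of 18 ADAMTS genes rose and 17 did not pass (5.56% called, against 6.77% of all probe sets), with a median of -0.10.

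Among the inhibitors TIMP4 fell. It had 6.89, 7.14 and 7.29 on the ox-LDL arrays, against 7.73, 7.59 and 7.66 on the vehicle arrays. All 3 ox-LDL arrays were lower, with a wider spread (SD 0.20) than the vehicle arrays (SD 0.07). The difference of -0.55 (SE 0.11, 95% confidence interval -0.82 to -0.28, limma adjusted p = 0.0374) was the weakest of the 6 calls, and it was lost without any 1 array other than the third vehicle array (adjusted p = 0.0633 to 0.134). TIMP1, a secreted inhibitor of most soluble MMPs, had 12.31, 12.32 and 12.36 with ox-LDL and 12.35, 12.34 and 12.20 with vehicle. Its groups overlapped, and the difference of 0.04 had a 95% confidence interval of -0.14 to 0.21. TIMP3, the matrix-bound inhibitor that also blocks ADAM17, had 6.23, 6.25 and 6.35 with ox-LDL and 6.29, 6.30 and 6.63 with vehicle, with a difference of -0.13 (95% confidence interval -0.39 to 0.13).

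RefSeq promoter entries were found for 3 of the 6 called members, MMP14, TIMP4 and ADAM23, and they are shown beside MMP10 because these genes passed the test. The 250 bases before each start are from GRCh38.p14, with GGGCGG in capitals on either strand, the core of the GC box bound by SP1. They lie at chr14:22836335-22836584 on the plus strand for MMP14, chr3:12158913-12159162 on the minus strand for TIMP4 and chr2:206443282-206443531 on the plus strand for ADAM23.
MMP14: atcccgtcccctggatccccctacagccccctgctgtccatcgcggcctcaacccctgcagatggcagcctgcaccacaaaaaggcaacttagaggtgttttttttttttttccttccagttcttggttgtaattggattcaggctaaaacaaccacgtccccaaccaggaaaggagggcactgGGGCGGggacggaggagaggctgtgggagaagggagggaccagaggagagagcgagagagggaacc
TIMP4: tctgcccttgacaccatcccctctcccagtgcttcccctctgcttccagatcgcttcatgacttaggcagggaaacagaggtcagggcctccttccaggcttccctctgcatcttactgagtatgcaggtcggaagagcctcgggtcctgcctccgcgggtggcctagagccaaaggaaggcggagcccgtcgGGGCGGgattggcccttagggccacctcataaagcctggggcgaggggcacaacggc
ADAM23: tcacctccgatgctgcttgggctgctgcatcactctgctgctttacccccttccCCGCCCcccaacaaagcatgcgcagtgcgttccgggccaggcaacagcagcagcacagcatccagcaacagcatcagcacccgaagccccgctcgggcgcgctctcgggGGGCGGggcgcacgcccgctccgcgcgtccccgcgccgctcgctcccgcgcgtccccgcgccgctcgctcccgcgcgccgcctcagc
Neither TGANTCA nor TATAAA is in these 3 windows, while GGGCGG is in all 3, as in 42.6% of all promoters of that length and 25 of the 38 members with an entry. G and C made up 56.8% of the MMP14 window, 62.8% of that of TIMP4 and 73.6% of that of ADAM23, against 34.4% for MMP10 and a median of 58% over all promoters.

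Genes that act with the metalloproteases were read from 5 lists drawn up from general knowledge of this pathway, with earlier results of these data known. The shares called are thus those of chosen lists, and whether they exceed the background was not tested. In all but the last list most genes were above the negative controls, and 8.31% of all probe sets above that level were called. Of 21 measured activators and inhibitors 4 fell, 2 rose and 15 did not pass (28.6% called, against 6.77% of all probe sets), with a median of 0.00, with 9 differences above 0 and 12 below. PLAU, urokinase, which turns plasminogen into plasmin, an activator of MMP precursors, had 10.88, 10.75 and 10.81 with ox-LDL and 11.48, 11.41 and 11.38 with vehicle. PLAUR, its receptor, had 9.38, 9.39 and 9.45 with ox-LDL and 10.07, 10.06 and 10.28 with vehicle. For both, all ox-LDL arrays were lower, with differences of -0.61 and -0.73 (limma adjusted p = 0.00624 and 0.00549) that passed with any 1 array left out. PLAT, the tissue plasminogen activator (-0.54), and TFPI2, an inhibitor of plasmin (-0.45), also fell, and CAV1, which encodes caveolin 1 (0.55), and TSPAN14, a tetraspanin partner of ADAM10 (0.35, limma adjusted p = 0.0499), rose. Of these, PLAT, TFPI2, CAV1 and TSPAN14 each lost the call without ox-LDL replicate 1 and without ox-LDL replicate 2. RECK, the membrane-anchored inhibitor of MMP14, MMP2 and MMP9, named after its values were seen, had 8.20, 8.25 and 8.24 with ox-LDL and 7.81, 7.76 and 6.91 with vehicle. Its difference of 0.74 did not pass (limma adjusted p = 0.109). The third vehicle array was far below its group. Without that array the difference was 0.44 and passed (adjusted p = 0.00938), as 12.4% of all probe sets did.

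Of 26 measured membrane proteins that ADAMs shed, 2 fell, 1 rose and 23 did not pass (11.5% called, against 6.77% of all probe sets, with a median of -0.15). NRG1, the ERBB3 and ERBB4 ligand neuregulin 1, had 9.82, 9.65 and 9.74 on the ox-LDL arrays, against 11.68, 11.64 and 11.61 on the vehicle arrays. It was 3.74-fold lower (difference -1.90, SE 0.08, limma adjusted p = 0.000192), and EREG, the EGF receptor ligand epiregulin, was 1.61-fold lower (difference -0.68, limma adjusted p = 0.00451). SDC1, the proteoglycan syndecan 1, rose (difference 0.48, limma adjusted p = 0.0121) but did not pass without any 1 ox-LDL array. Without the third vehicle array 5 fell and 3 rose, where 5.69% of all probe sets fell and 6.76% rose.

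Of 19 measured matrix proteins cut by these proteases, 4 rose and 15 did not pass (21.1% called, against 6.77% of all probe sets), although the list's median was -0.10. THBS1, thrombospondin 1, a substrate of ADAMTS1, had 11.53, 11.60 and 11.55 with ox-LDL and 10.24, 10.24 and 10.46 with vehicle, a 2.37-fold higher value (difference 1.25, SE 0.09, limma adjusted p = 0.00117). VCAN, the proteoglycan versican, also cut by ADAMTS1, had 8.49, 8.38 and 8.39 with ox-LDL and 7.70, 7.79 and 7.53 with vehicle. Versican was 1.68-fold higher (difference 0.75, SE 0.09, limma adjusted p = 0.0064), and both genes passed with any 1 array left out. NID1, a basement membrane linker (difference 0.42), and FBN1, fibrillin 1 (difference 0.47), rose too, but neither passed without any 1 array other than the third vehicle array.

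Among 24 transcription factors known from MMP promoters, 8 fell, 2 rose and 14 did not pass (41.7% called, against 6.77% of all probe sets, with a median of -0.18). CEBPB, a leucine zipper factor of inflammatory gene transcription (difference -1.05), had the smallest p and was the one that passed with any 1 array left out. The AP-1 subunits moved both ways: FOSL1 and JUND fell, with differences of -0.42 and -0.51, and JUN rose with one of 0.49, while FOS, FOSB, FOSL2 and JUNB had differences of -0.24, -0.09, -0.08 and -0.51 and did not pass. The ETS factors ETS1, ETV4 and ETV5 fell with differences of -0.47, -0.33 and -0.44, NFKB1 and ATF3 with -0.46 and -0.68, and RUNX2 rose with 0.50. Apart from CEBPB these calls depended on single arrays. Of the 8 falls, 1 was left without any 1 ox-LDL array or without vehicle replicate 1, and 2 without vehicle replicate 2. Falls over all probe sets dropped as well, from 705 to between 212 and 229 without 1 ox-LDL array. They were 400 without vehicle replicate 1 and 386 without vehicle replicate 2. Without the third vehicle array 10 of the factors fell, where 5.69% of all probe sets fell. The last list, of 14 related enzymes and ADAMTS-like proteins such as BMP1 and PAPPA, had none called in limma, with 2 at an unadjusted p under 0.05 (26.1% of all probe sets), 0 with an unmoderated t statistic and 2 with array weights. TLL1, ADAMTSL4 and MEP1A had its smallest p, with differences of 0.74, 0.36 and -0.35 (limma adjusted p = 0.0934, 0.118 and 0.221), and the levels of TLL1 and MEP1A were not above the negative controls.

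**Figure D4:**
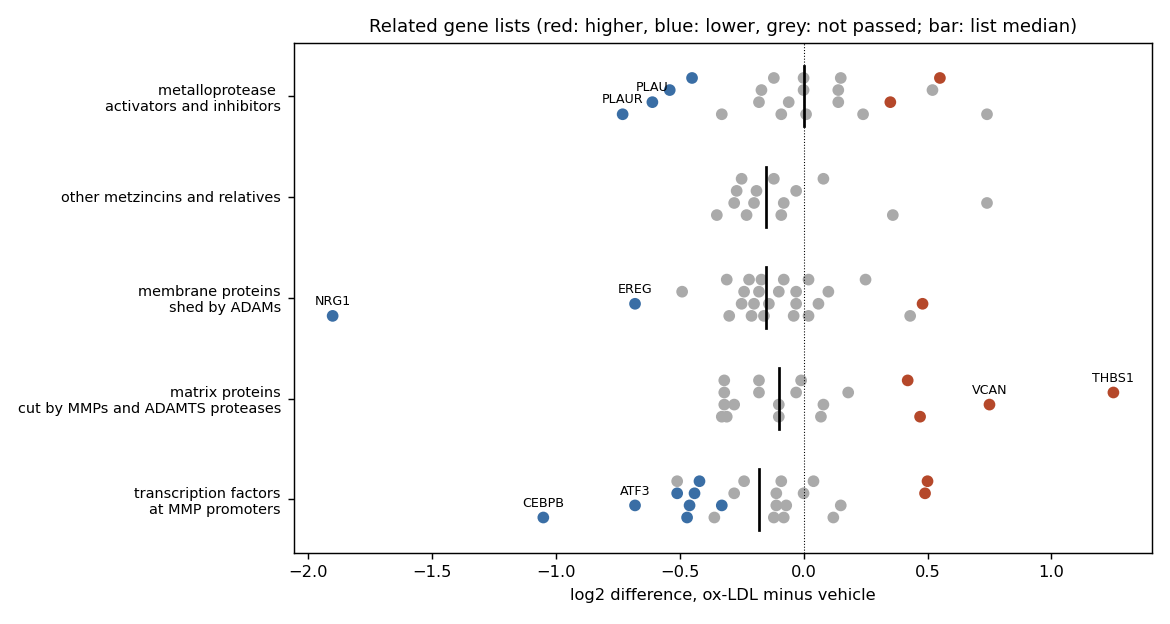
Differences in log2 expression, ox-LDL minus vehicle, of the measured genes of 5 related lists, 1 point per gene, offset vertically for clarity. Red marks genes called higher, blue called lower and grey not passed, and the bar is the list's median. NRG1 lies farthest to the left at -1.90 and THBS1 farthest to the right at 1.25.

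The study itself selected genes whose p was 0.001 or less and whose fold change was 1.5 or more. Applied to limma's unadjusted p, this took 5 of the 63 members, against 2.31% of all probe sets. These were MMP1, MMP3 and MMP14 among the falls (1.31% of all probe sets) and ADAMTS1 and ADAM23 among the rises (1% of all probe sets). TIMP4 did not reach it.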

How the data were processed

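Total RNA of 6 T24 samples was hybridised as biotinylated cDNA, 1 array per sample. Per the submitters' processing notes, the authors used RMA (robust multi-array average), and the deposited values are on a log2 scale, as read from their range; version and settings: not given in the sources used here. RMA equalises arrays and compresses values near background. Of 24350 probe sets, 2902 controls were left out and 21448 tested; 17709 of these had 1 gene symbol and 3739 none. The negative control level is the 95th percentile of the means of 612 negative control probe sets. No depth applies to arrays, and their number limits precision.

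Groups followed the titles. Members, lists, named genes and tests were chosen with earlier results of these data known. One limma model (limma 3.58.1, R 4.3.3, figures with matplotlib 3.10.9) gave two-sided p-values, adjusted by Benjamini-Hochberg over all 21448 probe sets and called under 0.05. The procedure was run on simulated data with independent noise of equal spread on every array. An array that stands apart, like the third vehicle array, was not simulated. Fold changes are 2 to the power of a log2 difference. Named genes were every called member, all TIMPs, the members of smallest p in each subfamily, 12 well-known members and, in each related list, the 3 with the smallest p; other genes were named after their values were seen. Promoters came from RefSeq (GRCh38.p14; 38 of 63 members matched). Alternatives were other normalizations, a filter on dim probe sets, other variance models, array weights, a replicate block, other thresholds and leaving out each array.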

Additional observations from a re-analysis of the deposited data

How the results depend on the processing

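Of the 1052 values of the 63 members under the alternatives, 976 kept their direction and their side of the threshold. Much of this was fixed beforehand, as 57 members had no call to lose. The other thresholds, the intensity trend, the unmoderated t statistic and the replicate block also leave the differences unchanged. The 6 called members kept their direction under every alternative. As their groups did not overlap, only the other normalizations could have turned it. MMP14 and ADAMTS1 also kept the call under all alternatives. The count of members higher with ox-LDL was 2, and 5 with the intensity trend, 7 with array weights and 6 at an adjusted p under 0.1. The count of members lower was 4, and 9 with array weights, 1 with an unmoderated t statistic and 7 at an adjusted p under 0.1. With 1 array left out these counts were 1 to 2 higher and 2 to 5 lower. With the replicate number as a block, 2 members were higher and 2 lower, and MMP3 and TIMP4 lost the call. Deviations of same-numbered arrays from their group means were hardly correlated (correlations of -0.00608, 0.0298 and 0.0196). These correlations cannot decide whether the number pairs the arrays. The vehicle array that stood apart enters its group mean, and so the deviations of the other vehicle arrays. Calls over all probe sets were 746 higher and 705 lower. With 1 array left out they ran from 93 to 1450 higher and from 212 to 1220 lower. They were 244 and 306 with the replicate block, and 1608 and 1041 with the intensity trend. With array weights they were 2140 and 1822. At an adjusted p under 0.1 they rose to 1562 higher and 1275 lower, so calls over all probe sets rose along with those of the members. MMP1, MMP3 and TIMP4 did not pass with an unmoderated t statistic (adjusted p = 0.0662, 0.0876 and 0.102). Among the related genes, TSPAN14, FBN1, JUND and ATF3 also lost the call with equal array medians. The cause of these changes was not tested. Signs turned for 16 members, none of them called and all with a main difference between -0.17 and 0.11. Under array weights these were MMP2 0.00, MMP9 -0.02, ADAM20 0.01, ADAM28 -0.06, TIMP1 -0.01. Under cyclic loess they were MMP15 0.04, ADAM15 -0.02, ADAMTS2 0.01, ADAMTS5 0.10, under a second quantile normalization MMP15 0.00, ADAM15 -0.02, ADAMTS5 0.07, and with equal array medians ADAMTS5 0.01. With 1 array left out, differences ran over -0.23 to 0.04 for MMP2, -0.01 to 0.09 for MMP9, -0.08 to 0.14 for MMP24, -0.29 to 0.09 for MMP21, -0.02 to 0.12 for MMP20, -0.09 to 0.24 for MMP27, -0.00 to 0.24 for ADAM21, -0.07 to 0.08 for ADAM28, -0.24 to 0.04 for ADAM2, -0.31 to 0.01 for ADAMTS17, -0.07 to 0.07 for ADAMTS5, -0.02 to 0.06 for TIMP1. For 19 members, not above the negative controls in either group, signal over background limits what a difference can show.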
